A study of Mus musculus with 15 samples.

Results

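In mouse regulatory T (Treg) cells, most genes of the constitutive proteasome were more abundant after stimulation with beads that carry antibodies to CD3 and CD28. The genes described here are those whose GENCODE vM21 symbol begins with Psma, Psmb, Psmc, Psmd, Psme, Psmf or Psmg followed by a digit, leaving out the immunoproteasome subunits Psmb8, Psmb9 and Psmb10 and all pseudogenes. The rule found 47 genes on 16 chromosomes. All 47 were listed in all 15 expression tables and passed the filter on low values, among 29989 genes tested. They comprise 8 genes of the α ring and 8 of the β ring of the 20S core, 9 of the base and 8 of the lid of the 19S cap, 6 activators or inhibitors, and 7 assembly factors. The remaining gene, Psmc3ip, encodes a cofactor of meiotic recombination and shares only the start of its name with the others, which leaves 46 genes of the proteasome.

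Each library came from cells of female C57BL/6 mice that carry a floxed Dock8 on both alleles and 1 copy of a Foxp3-driven YFP-Cre (Foxp3YFP-Cre/+/Dock8flox/flox). Foxp3 is X-linked, so in these heterozygous females the Cre acts in the Treg cells that use the X chromosome with the allele. KO denotes the YFP+ cells, which express Cre and lose Dock8, and WT denotes the YFP- cells, which have the floxed alleles intact, and both kinds develop in mice of the same genotype. The cells were sorted on CD25 and CD39 from spleen and lymph nodes and kept for 16 h in medium with anti-CD3+CD28 beads at 1 bead per cell, or in medium alone. There were 2 KO and 3 WT libraries with beads, and 6 KO and 4 WT libraries without beads, all made with Smart-Seq2, a full-length cDNA method for small inputs. The labels call the samples independent but do not tie them to animals, so p-values measure only the spread between these samples, which may be technical. The study asks what DOCK8, a guanine nucleotide exchange factor that shapes the actin cytoskeleton of lymphocytes, does for interleukin-2 signalling and immune synapses of Treg cells.

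The proteasome degrades proteins that carry chains of ubiquitin. Its 20S core is a barrel of stacked rings: the outer α rings gate the entrance and the inner β rings hold the proteolytic sites. The 19S cap binds the ubiquitin chain, and its base, a ring of ATPases with scaffold proteins, unfolds the substrate, while its lid removes the ubiquitin. PA28 and PA200 complexes can bind the core in place of the cap, and dedicated chaperones put the rings together in order. Lymphocytes also make the immunoproteasome subunits, which interferon induces in other cells and which take the places of the constitutive catalytic subunits in newly built cores.

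The tables give TPM, a length-corrected share of each library's transcripts, and the number of reads behind each value is unknown. Dock8 was listed at 7.90 and 5.82 TPM in KO libraries, against 8.71, 10.1 and 8.91 TPM in WT libraries with beads, and at 6.70 to 11.9 TPM (median 7.90) in KO libraries, against 13.7, 9.15, 21.98 and 13.7 TPM in WT libraries without beads. The KO libraries lay below the WT libraries with beads and overlapped with them without beads, and a gene-level value also holds exons outside the floxed part, so it checks the label only in part. T cell and Treg cell markers were above 0 in all 15 libraries. The 5 T cell markers summed to 1132 to 1331 TPM in KO and 879.6 to 1147 TPM in WT libraries with beads, against 298 to 531 TPM in KO and 632 to 1268 TPM in WT libraries without beads. The KO libraries without beads lay below all others, while the WT ranges overlapped. The 6 Treg cell markers summed to 1112 to 1280.2 TPM in KO and 1072 to 1188 TPM in WT libraries with beads, against 273 to 449.6 TPM in KO and 379.8 to 549 TPM in WT libraries without beads, and 4 of them rose with beads in KO and 4 in WT cells. The 5 stromal markers summed to 16.5 to 31.2 TPM in KO and 14.9 to 23.5 TPM in WT libraries with beads, against 33.8 to 84.3 TPM in KO and 46.3 to 63.1 TPM in WT libraries without beads, and 2 of them fell with beads in WT cells. The 6 CD8 T or NK cell markers summed to 25.4 to 78.1 TPM with overlap between all groups, and 2 of them fell with beads in WT cells. Marker sums of myeloid cells were at most 7.09 TPM, and those of B cells at most 26.6 TPM. A group of 12 repeat-rich predicted genes held 12.2% to 18.8% of all TPM in KO and 7.89% to 14.2% in WT libraries with beads, against 24.8% to 48.6% in KO and 14.8% to 34.6% in WT libraries without beads. TPM is a share of the whole, so a larger share in these genes lowers every other gene's value. The markers and the repeat-rich genes move with the comparisons below, and their part in the results was not tested. In such bulk samples, fewer cells of a type and less RNA per cell cannot be told apart.

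Summed over the 47 genes, the level was 6463 to 7845 TPM in KO and 8865 to 9650.5 TPM in WT libraries with beads, against 1322 to 2297 TPM in KO and 1892 to 3700.3 TPM in WT libraries without beads. Every library with beads thus exceeded every library without. The sum made up 0.766% to 0.942% of all TPM in KO and 1.06% to 1.15% in WT libraries with beads, against 0.141% to 0.266% in KO and 0.207% to 0.441% in WT libraries without beads. The 20S core was its largest class, with 3607 to 4503 TPM in KO and 4842 to 5372 TPM in WT libraries with beads, against 614 to 1238 TPM in KO and 1039.7 to 1991 TPM in WT libraries without beads. The sum over the 20S core exceeded that over the 19S cap in every library: it was 1.98 to 2.13 times as high in KO and 2.12 to 2.29 times in WT libraries with beads, and 1.24 to 1.97 times in KO and 1.54 to 2.15 times in WT libraries without beads. The subunits Psma1 to Psma7 and Psmb1 to Psmb7, which assemble in equal numbers in the core, did not have equal transcript levels. Within a library the highest of these 14 was 5.31 to 6.62 times the lowest in KO and 6.53 to 8.51 times in WT libraries with beads, and 8.38 to 33.7 times in KO and 7.88 to 33.3 times in WT libraries without beads. The KO range without beads covers 5 of the 6 libraries, since the other lists Psma5 at 0.

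**Figure D1:**
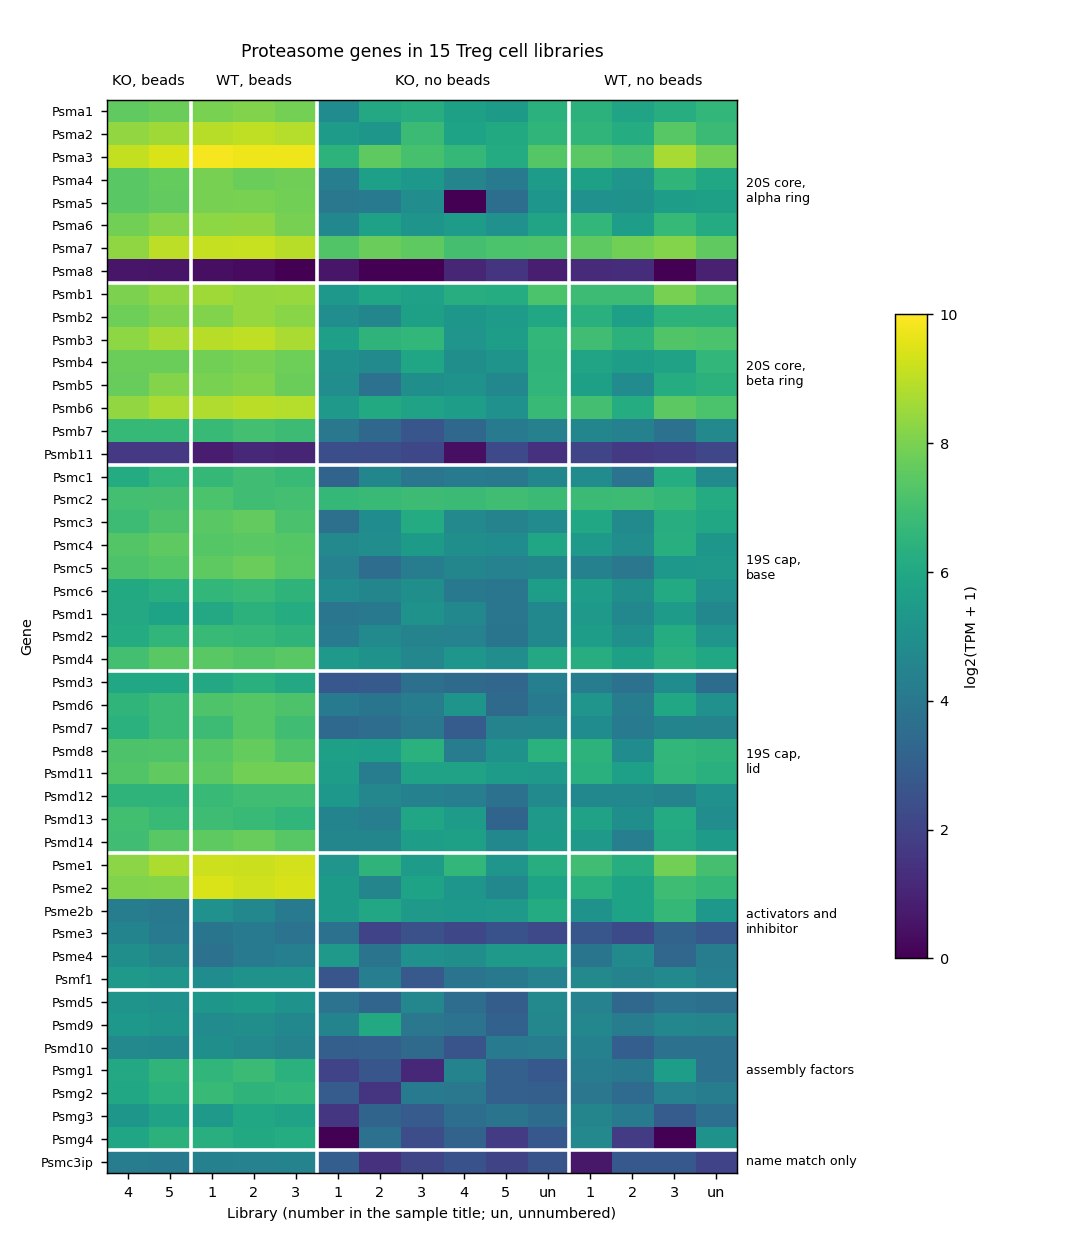
Heat map of log2(TPM + 1) of the 47 genes (rows, by class) in 15 libraries (columns, grouped as KO with beads, WT with beads, KO without beads and WT without beads). The columns with beads are brighter, meaning higher values, in nearly all rows, while Psma8 and Psmb11 are low throughout and Psmc2 has similar values in all columns.

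Without beads the libraries of a group differed more among themselves. The median over the 47 genes of the SD between libraries was 0.17 in KO and 0.13 in WT libraries with beads, against 0.60 in KO and 0.53 in WT libraries without beads, on the log2(TPM + 1) scale. The same median over genes with a group mean of at least 20 TPM was 0.24 in KO and 0.28 in WT libraries with beads, and 0.62 in KO and 0.55 in WT libraries without beads.

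Bead stimulation was tested with limma on log2(TPM + 1), in 1 fit of all 15 libraries with a shared spread. Beads were compared with none within KO and within WT cells. Differences below are on this log2 scale, with beads minus without, ± SE, with Benjamini-Hochberg adjusted p over all genes tested. This scale understates the change of genes with few TPM. In KO cells 38 of the 47 genes were higher with beads at an adjusted p under 0.05, against a background of 5.95% of all genes tested, and 1 gene was lower, against a background of 2.15%. In WT cells 32 were higher, against a background of 4.6%, and 0 were lower, against a background of 6.63%. At an unadjusted p under 0.05, 1 gene was lower in WT cells, Psme2b. The median difference over the 47 genes was 2.24 in KO and 1.93 in WT cells, against medians of -0.23 and -0.44 over all genes tested. Abundant genes were called more often. In a separate fit of only the 5937 genes with a group mean of at least 20 TPM, 40 of the 44 genes of the rule among them were higher in KO cells. The background was 35.7%, and in WT cells 37 were higher, against 26.3%. A gene enters this set through its highest group. Psmd3, Psmd5, Psmd10, Psmg2, Psmg3, Psmg4 and Psmc3ip enter only through groups with beads, and such entry favours calls higher with beads. The median over the 5937 genes was 0.74 in KO and 0.19 in WT cells. Without overlap between libraries with and without beads, 42 of the 47 genes were higher in KO cells, against a background of 11.2%, and 43 in WT cells, against 8.61%. Lower without overlap were 1 gene in KO cells, against 11.5%, and 2 in WT cells, against 20.9%. The count in KO cells rests on 2 libraries with beads. Without KO library 5 it was 10 genes higher against a background of 1.08%, and without KO library 4 it was 23 against 1.85%, where the lone sample is assumed to vary like the other groups. Without the 4 KO libraries without beads that had more than 35% of TPM in repeat-rich genes, 25 genes were higher, against a background of 2.51%.

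Which genes were called also depended on single libraries. In both KO and WT cells, 10 genes were called with each library left out in turn: Psma2, Psma6, Psmb2, Psmb6, Psmb7, Psmc4, Psmc5, Psmd3, Psmd7 and Psme2. In KO cells the other 29 calls were lost without KO library 5 with beads, at adjusted p between 0.0512 and 0.312. Without KO library 4 with beads, 16 of those were lost, at adjusted p between 0.0515 and 0.26. Without the 4 KO libraries rich in repeats, 14 were lost, among them Psma7, Psmb1, Psmb5, Psmc1, Psmc3, Psmd14 and Psmf1, at adjusted p between 0.0528 and 0.244. In WT cells 22 genes were called with each library left out. The calls of Psmb5, Psmc1, Psmc3, Psmd1, Psmd2, Psmd4, Psmd5, Psmd11, Psmg1 and Psmg3 were lost with at least 1 library left out, the WT libraries with beads included, at adjusted p between 0.0503 and 0.148.

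Of the genes called, 31 were higher with beads in both KO and WT cells, which is 81.6% of the KO list and 96.9% of the WT list. The 7 called in KO cells alone were Psma5, Psmb1, Psmc6, Psmd13, Psme3, Psmf1 and Psmg4, and Psmd5 was called in WT cells alone. The 8 genes higher in neither were Psma8, Psmb11, Psmc2, Psmd8, Psmd9, Psmd10, Psme2b and Psme4. The group means of the KO and WT bead comparisons have no libraries in common. Their p-values share a spread estimated from all 15 libraries, so the KO and WT lists are not independent. Psmc3ip, which is no part of the proteasome, was among the genes called in both, at 1.91 in KO cells and 2.38 in WT cells, and without it the counts are over 46 genes.

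**Figure D2:**
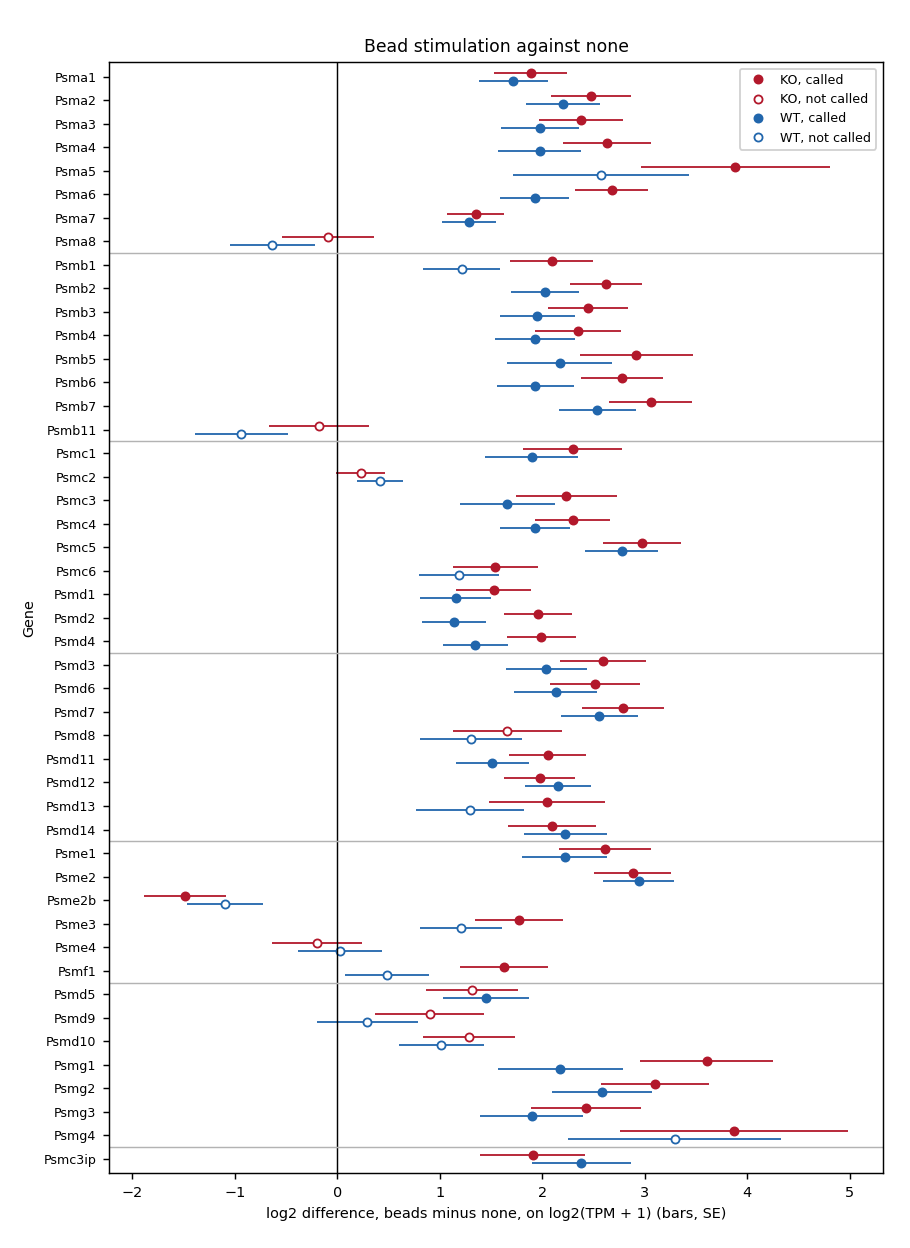
Log2 difference with beads minus without for each of the 47 genes, ± SE from limma, by class, with KO cells (red, n = 2 with and 6 without beads) drawn above WT cells (blue, n = 3 and 4). Filled points passed an adjusted p under 0.05. Nearly all points of the core and cap lie to the right of 0, and those of Psma8, Psmb11, Psmc2 and Psme4 lie near 0 or below it with open symbols.

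The 3 constitutive catalytic subunits all rose with beads in both kinds of cell. Psmb5, which carries the chymotrypsin-like site, had 204 and 281 TPM in KO and 253, 273 and 216 TPM in WT libraries with beads. Without beads, Psmb5 had 12.3 to 94.8 TPM (median 30.01) in KO and 49.8, 27.3, 72.7 and 84.9 TPM in WT libraries. The libraries with beads were all above those without, and the difference was 2.92 ± 0.55 in KO cells (adjusted p = 0.00447) and 2.17 ± 0.52 in WT cells (adjusted p = 0.0139). Psmb6, the caspase-like subunit, had 332 and 423 TPM in KO and 453, 498 and 469 TPM in WT libraries with beads. Without beads, Psmb6 had 31.9 to 106 TPM (median 50.5) in KO and 127, 71.3, 179.6 and 141 TPM in WT libraries. Again the groups with and without beads did not overlap, with differences of 2.78 ± 0.40 in KO cells (adjusted p = 0.00073) and 1.93 ± 0.38 in WT cells (adjusted p = 0.00465). Psmb7, the trypsin-like subunit, was the least abundant of the 3 in every library, at 102 and 104 TPM in KO and 109, 129.5 and 115 TPM in WT libraries with beads. Without beads, Psmb7 had 5.40 to 19.4 TPM (median 12.2) in KO and 23.1, 19.9, 12.2 and 25.1 TPM in WT libraries. Its differences were 3.06 ± 0.40 in KO cells (adjusted p = 0.000372) and 2.54 ± 0.38 in WT cells (adjusted p = 0.00104), and no library without beads reached the lowest with beads.

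Among the other genes of the 20S core, 11 rose in KO cells and 9 in WT cells. For the α ring the count was 7 of 8 in KO and 6 of 8 in WT cells, with median differences of 2.43 and 1.95. For the β ring, catalytic subunits included, it was 7 of 8 and 6 of 8, with medians of 2.53 and 1.94. Psma3, an α subunit whose tail takes part in closing the gate, was the most abundant gene of the core by its mean over all 15 libraries, at 542 and 686 TPM in KO and 931, 846 and 847 TPM in WT libraries with beads. Without beads, Psma3 had 69.6 to 184 TPM (median 118) in KO and 173, 141, 407 and 238 TPM in WT libraries. It differed by 2.38 ± 0.41 in KO cells (adjusted p = 0.00219) and 1.98 ± 0.38 in WT cells (adjusted p = 0.00433). Psma2 had 329.9 and 382 TPM in KO and 486, 519.7 and 478 TPM in WT libraries with beads. Without beads, Psma2 had 38.3 to 111 TPM (median 59.96) in KO and 92.4, 72.8, 169 and 113 TPM in WT libraries. Psma6 had 230.1 and 288 TPM in KO and 313, 324 and 243 TPM in WT libraries with beads. Without beads, Psma6 had 24.1 to 56.98 TPM (median 40.3) in KO and 97.1, 47.7, 102 and 70.3 TPM in WT libraries. Both genes encode α subunits, and in both every library with beads was above every library without, by 2.47 in KO cells and 2.20 in WT cells for Psma2 and 2.68 in KO cells and 1.93 in WT cells for Psma6, with adjusted p between 0.000407 and 0.00255. Psmb2, a structural β subunit, had 223 and 265 TPM in KO and 277, 342 and 301 TPM in WT libraries with beads. Without beads, Psmb2 had 22.8 to 60.9 TPM (median 41.00) in KO and 79.8, 49.5, 86.2 and 88.1 TPM in WT libraries. Psmb3, another structural β subunit, had 311 and 412 TPM in KO and 485, 532 and 419 TPM in WT libraries with beads. Without beads, Psmb3 had 35.9 to 97.7 TPM (median 70.01) in KO and 120.3, 83.8, 156 and 142 TPM in WT libraries. Neither overlapped between the groups, and their differences were 2.62 ± 0.35 in KO cells (adjusted p = 0.000415) and 2.03 ± 0.33 in WT cells (adjusted p = 0.0017) for Psmb2, and 2.45 ± 0.39 in KO cells (adjusted p = 0.0014) and 1.95 ± 0.36 in WT cells (adjusted p = 0.00375) for Psmb3. Psmb1 rose by 2.09 ± 0.41 in KO cells (adjusted p = 0.00518), and its difference of 1.21 ± 0.38 in WT cells missed the threshold (adjusted p = 0.0515). The remaining α subunits were called in both, with 1.89 in KO cells and 1.72 in WT cells for Psma1, 2.63 in KO cells and 1.97 in WT cells for Psma4, and 1.35 in KO cells and 1.29 in WT cells for Psma7. The remaining β subunit, Psmb4, was called in both at 2.35 in KO cells and 1.93 in WT cells.

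Psma5, an α subunit, was listed at 0 in 1 KO library without beads, while the other KO libraries without beads reached 37.2 TPM. It had 174 and 195 TPM in KO libraries with beads, and its fitted difference in KO cells (3.89 ± 0.92, adjusted p = 0.0163) includes that 0, which can be a failed estimate. In WT cells the libraries with beads had 248, 253 and 230.2 TPM, against 32.3, 32.8, 47.9 and 50.9 TPM without, which did not overlap and gave a difference of 2.57 ± 0.86 (adjusted p = 0.0668). A pair of core genes with tissue-restricted roles were barely detected. Psma8, the α subunit of the testis proteasome, was highest at 1.84 TPM and was listed at 0 in some libraries with and without beads. Psmb11, the catalytic subunit of the thymus proteasome of cortical epithelial cells, was between 0.342 and 4.34 TPM in all 15 libraries. Neither was called, with differences of -0.09 in KO cells and -0.63 in WT cells for Psma8 and -0.18 in KO cells and -0.94 in WT cells for Psmb11.

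In the 19S base, 8 of 9 genes rose in KO cells and 7 of 9 in WT cells, with median differences of 1.99 and 1.35. Psmc5, an ATPase of the ring, had 145 and 164 TPM in KO and 183, 209.5 and 169 TPM in WT libraries with beads. Without beads, Psmc5 had 10.99 to 23.2 TPM (median 20.6) in KO and 20.3, 14.8, 38.99 and 40.6 TPM in WT libraries. Its differences, 2.97 ± 0.38 in KO cells (adjusted p = 0.000306) and 2.78 ± 0.36 in WT cells (adjusted p = 0.000423), were the largest of the base in both kinds of cell, and the groups did not overlap. Psmc4, another ATPase of the ring, had 161 and 180.1 TPM in KO and 164, 173 and 163 TPM in WT libraries with beads. Without beads, Psmc4 had 24.9 to 58.00 TPM (median 29.6) in KO and 40.98, 29.1, 75.7 and 38.2 TPM in WT libraries. Here too all libraries with beads were higher, by 2.30 ± 0.37 in KO cells (adjusted p = 0.00139) and 1.93 ± 0.34 in WT cells (adjusted p = 0.00276). Psmc2 encodes an ATPase of the same ring but showed no called difference. It had 129 and 132 TPM in KO and 142, 121 and 128 TPM in WT libraries with beads. Without beads, Psmc2 had 101 to 121 TPM (median 112) in KO and 111, 114, 100.5 and 70.5 TPM in WT libraries. The libraries with beads were higher without overlap, by 0.23 ± 0.24 in KO cells (adjusted p = 0.647) and 0.42 ± 0.23 in WT cells (adjusted p = 0.262). It was the most abundant gene of the base by its mean over all 15 libraries, and without beads it was at least as high as 70.5 TPM, where Psmc5 reached at most 40.6 TPM. Psmd1, a large scaffold protein of the base and the least abundant gene of that class by its mean over all 15 libraries, had 64.5 and 54.2 TPM in KO and 64.8, 84.99 and 71.4 TPM in WT libraries with beads. Without beads, Psmd1 had 14.1 to 33.2 TPM (median 19.9) in KO and 40.4, 24.3, 44.99 and 24.6 TPM in WT libraries. It rose by 1.52 in KO cells and 1.16 in WT cells. Among the other ATPases, Psmc1 rose by 2.30 in KO cells and 1.90 in WT cells, and Psmc3 by 2.24 in KO cells and 1.66 in WT cells. Psmc6 rose in KO cells by 1.54, and its difference of 1.19 in WT cells was not called (adjusted p = 0.0609). Psmd4, a ubiquitin receptor, rose by 1.99 in KO cells and 1.35 in WT cells. Psmd2, the other large scaffold, had 69.3 and 93.97 TPM in KO and 105, 101 and 89.3 TPM in WT libraries with beads. Without beads, Psmd2 had 13.9 to 26.00 TPM (median 20.8) in KO and 45.8, 31.2, 71.6 and 36.4 TPM in WT libraries. It rose by 1.96 ± 0.34 in KO cells (adjusted p = 0.0022) and 1.14 ± 0.31 in WT cells (adjusted p = 0.0295).

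In the lid, 7 of 8 genes rose in KO cells and 6 of 8 in WT cells, with medians of 2.07 and 2.09. Psmd14, the deubiquitinase that cleaves the chain from the substrate, had 119.8 and 175 TPM in KO and 180.4, 202 and 168 TPM in WT libraries with beads. Without beads, Psmd14 had 23.2 to 49.7 TPM (median 33.2) in KO and 40.98, 18.4, 63.8 and 44.6 TPM in WT libraries. The groups with and without beads did not overlap, and the differences were 2.09 ± 0.43 in KO cells (adjusted p = 0.00733) and 2.22 ± 0.40 in WT cells (adjusted p = 0.00314). Psmd7, the partner of Psmd14 in the lid, had 82.6 and 111 TPM in KO and 116, 165 and 122 TPM in WT libraries with beads. Without beads, Psmd7 had 6.61 to 21.8 TPM (median 12.8) in KO and 28.3, 16.8, 21.6 and 21.5 TPM in WT libraries. It differed by 2.79 ± 0.40 in KO cells (adjusted p = 0.000671) and 2.56 ± 0.37 in WT cells (adjusted p = 0.000914), again with no overlap. Psmd12, a structural subunit of the lid, had 88.97 and 90.8 TPM in KO and 105, 122 and 121 TPM in WT libraries with beads. Without beads, Psmd12 had 12.6 to 39.6 TPM (median 21.9) in KO and 24.6, 24.4, 20.96 and 31.98 TPM in WT libraries. It rose by 1.98 ± 0.35 in KO cells (adjusted p = 0.00265) and 2.16 ± 0.32 in WT cells (adjusted p = 0.0011). Psmd11, also structural, was the most abundant gene of the lid by its mean over all 15 libraries, at 157 and 186 TPM in KO and 179, 230.2 and 232 TPM in WT libraries with beads. Without beads, Psmd11 had 17.8 to 53.5 TPM (median 45.6) in KO and 79.8, 49.5, 93.8 and 79.7 TPM in WT libraries. Psmd3 was the least abundant by that mean, at 61.6 and 61.7 TPM in KO and 63.8, 79.9 and 64.8 TPM in WT libraries with beads. Without beads, Psmd3 had 5.48 to 18.8 TPM (median 9.42) in KO and 17.9, 12.4, 27.8 and 10.6 TPM in WT libraries. Both had all libraries with beads above those without, by 2.05 in KO cells and 1.51 in WT cells for Psmd11 and 2.59 in KO cells and 2.04 in WT cells for Psmd3. Psmd6, a structural subunit, rose by 2.52 in KO cells and 2.13 in WT cells. Psmd13 rose in KO cells by 2.05 (adjusted p = 0.0363), and its difference of 1.30 in WT cells was not called (adjusted p = 0.13). Psmd8 was the lid gene called in neither comparison. It had 148 and 151 TPM in KO and 165, 199.5 and 152 TPM in WT libraries with beads. Without beads, Psmd8 had 17.9 to 83.4 TPM (median 49.4) in KO and 86.9, 28.5, 98.5 and 89.9 TPM in WT libraries. The groups did not overlap, and the differences were 1.66 ± 0.53 in KO cells (adjusted p = 0.071) and 1.31 ± 0.50 in WT cells (adjusted p = 0.107).

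The activators did not move as a group. In KO cells 4 of the 6 rose and 1 fell, and in WT cells 2 rose. Psme1 and Psme2 encode the α and β subunits of PA28, an interferon-inducible ring that opens the core to peptides, and they lie close together on chromosome 14 (GRCm38 chr14:55578123-55581529 and chr14:55587441-55591113). Psme2 had 276 and 286 TPM in KO and 683, 619 and 667 TPM in WT libraries with beads. Without beads, Psme2 had 22.7 to 55.5 TPM (median 39.7) in KO and 80.3, 54.1, 117 and 99.8 TPM in WT libraries. Its differences were 2.88 ± 0.37 in KO cells (adjusted p = 0.000317) and 2.94 ± 0.35 in WT cells (adjusted p = 0.000214). Psme1, the most abundant activator by its mean over all 15 libraries, though below Psme2 in the WT libraries with beads, had 303 and 432 TPM in KO and 607, 585 and 637 TPM in WT libraries with beads. Without beads, Psme1 had 35.8 to 98.7 TPM (median 59.4) in KO and 122, 74.9, 235 and 133 TPM in WT libraries. The differences were 2.62 ± 0.45 in KO cells (adjusted p = 0.00219) and 2.22 ± 0.42 in WT cells (adjusted p = 0.00396), and for both genes all libraries with beads exceeded all libraries without. Psme3, which encodes PA28γ of the nucleus, was the least abundant activator by its mean over all 15 libraries, at 21.7 and 16.2 TPM in KO and 13.9, 16.1 and 12.9 TPM in WT libraries with beads. Without beads, Psme3 had 3.08 to 12.5 TPM (median 4.11) in KO and 5.41, 3.79, 8.197 and 5.73 TPM in WT libraries. It rose in KO cells by 1.78 ± 0.43 (adjusted p = 0.0182), and the difference in WT cells was 1.21 ± 0.40 (adjusted p = 0.0647). Psme4, which encodes PA200, an activator known for a role with acetylated histones, had 30.9 and 23.3 TPM in KO and 12.5, 16.8 and 19.03 TPM in WT libraries with beads. Without beads, Psme4 had 13.3 to 40.9 TPM (median 36.2) in KO and 13.97, 26.3, 8.91 and 17.5 TPM in WT libraries. The groups with and without beads overlapped, and the differences of -0.20 ± 0.44 in KO cells (adjusted p = 0.842) and 0.03 ± 0.41 in WT cells (adjusted p = 0.976) were not called. Psmf1, which encodes PI31, known as an inhibitor of the core in vitro, had 41.7 and 35.8 TPM in KO and 27.9, 34.6 and 33.8 TPM in WT libraries with beads. Without beads, Psmf1 had 5.47 to 20.5 TPM (median 14.4) in KO and 24.8, 21.2, 26.3 and 18.7 TPM in WT libraries. It rose in KO cells by 1.63 ± 0.43 (adjusted p = 0.0309), and the WT difference was 0.48 ± 0.41 (adjusted p = 0.481).

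The 1 gene that fell was Psme2b, a single-exon copy of Psme2 (GRCm38 chr11:48945354-48946190). It had 17.5 and 15.4 TPM in KO and 32.4, 24.7 and 16.7 TPM in WT libraries with beads. Without beads, Psme2b had 39.1 to 69.5 TPM (median 41.6) in KO and 34.4, 54.9, 100 and 38.9 TPM in WT libraries. In both kinds of cell the libraries with beads were all below those without, with a called difference in KO cells (-1.49 ± 0.40, adjusted p = 0.031), and one of -1.10 ± 0.37 in WT cells that was not called (adjusted p = 0.069). Its transcript of 837 bases is 96.2% identical to that of Psme2, so how reads were divided between the copies is uncertain, and it also overlaps exons of 9930111J21Rik1 on the same strand. The KO call was lost without KO library 4 with beads (adjusted p = 0.177), without KO library 5 (adjusted p = 0.266) and without the 4 KO libraries rich in repeats (adjusted p = 0.11).

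**Figure D3:**
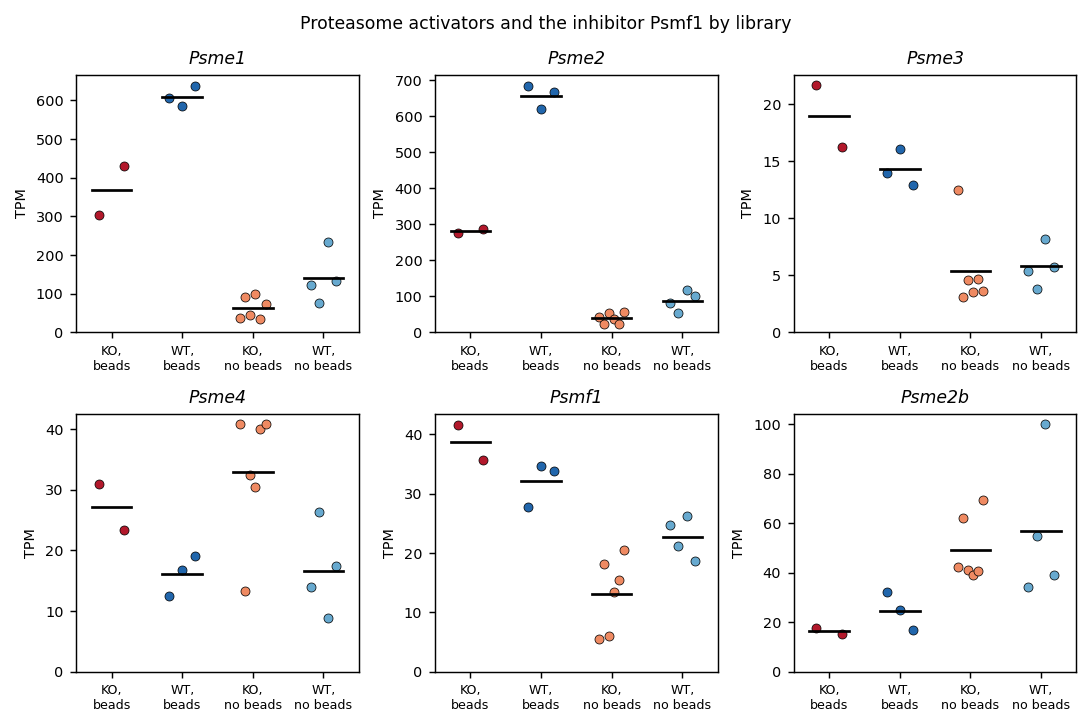
TPM of Psme1, Psme2, Psme3, Psme4, Psmf1 and Psme2b in each library (points), with the mean of each group as a line, for KO and WT with beads and KO and WT without beads. Psme1 and Psme2 are highest in the 3 WT libraries with beads, and Psme2b is lowest in the groups with beads. Psme4 overlaps between libraries with and without beads in KO and in WT, but not between KO and WT with beads.

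Of the 7 assembly factors, 4 rose in KO cells and 4 in WT cells. Psmg1 and Psmg2, partners in a chaperone of the α ring, were both higher. Psmg1, the most abundant assembly factor by its mean over all 15 libraries, had 64.9 and 91.2 TPM in KO and 96.04, 112 and 81.8 TPM in WT libraries with beads. Without beads, Psmg1 had 1.17 to 21.3 TPM (median 5.56) in KO and 18.1, 15.5, 47.1 and 12.8 TPM in WT libraries. Every library with beads was above every library without, by 3.60 ± 0.65 in KO cells (adjusted p = 0.00325) and 2.18 ± 0.61 in WT cells (adjusted p = 0.0317). Psmg2 had 62.9 and 83.3 TPM in KO and 105, 89.1 and 96.2 TPM in WT libraries with beads. Without beads, Psmg2 had 1.84 to 15.95 TPM (median 7.17) in KO and 14.8, 10.1, 20.4 and 17.7 TPM in WT libraries. It differed by 3.10 ± 0.52 in KO cells (adjusted p = 0.00203) and 2.58 ± 0.49 in WT cells (adjusted p = 0.00409). Psmg3 and Psmg4 form the second chaperone of the α ring. Psmg3 rose by 2.42 ± 0.54 in KO cells (adjusted p = 0.0109) and 1.90 ± 0.50 in WT cells (adjusted p = 0.0241). Psmg4 had 58.96 and 85.1 TPM in KO and 77.6, 66.8 and 72.4 TPM in WT libraries with beads. Without beads, Psmg4 had 0 to 12.5 TPM (median 4.93) in KO and 25.3, 2.41, 0 and 33.4 TPM in WT libraries. It was thus listed at 0 in KO and in WT libraries without beads. Its fitted differences, 3.87 ± 1.11 in KO cells (adjusted p = 0.0439) and 3.29 ± 1.04 in WT cells (adjusted p = 0.0535), include those zeros. The chaperones of the base were less uniform. Psmd5 rose in WT cells by 1.45 ± 0.42 (adjusted p = 0.0368) and differed by 1.31 ± 0.45 in KO cells (adjusted p = 0.0902). Psmd9 had 39.4 and 35.2 TPM in KO and 27.4, 29.6 and 24.6 TPM in WT libraries with beads. Without beads, Psmd9 had 7.66 to 65.8 TPM (median 18.4) in KO and 23.95, 18.1, 24.1 and 22.3 TPM in WT libraries. The KO groups overlapped, and the differences were 0.90 ± 0.53 in KO cells (adjusted p = 0.359) and 0.29 ± 0.49 in WT cells (adjusted p = 0.746). Psmd10, which encodes gankyrin, is X-linked and was the least abundant assembly factor by its mean over all 15 libraries, at 25.3 and 24.4 TPM in KO and 30.4, 25.4 and 21.4 TPM in WT libraries with beads. Without beads, Psmd10 had 4.99 to 17.3 TPM (median 8.76) in KO and 19.96, 6.89, 12.4 and 12.2 TPM in WT libraries. Its differences were 1.29 ± 0.45 in KO cells (adjusted p = 0.0966) and 1.02 ± 0.42 in WT cells (adjusted p = 0.135). Between KO and WT it differed by -0.03 ± 0.50 with beads and -0.30 ± 0.35 without, and for this gene the X chromosome in use and the loss of Dock8 cannot be told apart, since YFP+ and YFP- cells use different X chromosomes.

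Among neighbours of the pathway, the immunoproteasome subunit Psmb8 rose by 1.82 ± 0.38 in KO cells (adjusted p = 0.00764) and 1.59 ± 0.35 in WT cells (adjusted p = 0.0098). Psmb10 rose in KO cells by 1.86 ± 0.41 (adjusted p = 0.0104), with a difference of 0.94 ± 0.38 in WT cells (adjusted p = 0.129), and Psmb9 was called in neither, with 0.72 in KO cells and 0.86 in WT cells. Of 10 partners that do not carry a Psm name, 4 rose in KO and the same number in WT cells. Pomp, the maturation factor that guides the β ring, rose by 3.71 ± 0.59 in KO cells (adjusted p = 0.00146) and 2.60 ± 0.56 in WT cells (adjusted p = 0.00794). The others were Sem1, a small lid subunit (2.16 in KO cells and 1.85 in WT cells), Txnl1, a thioredoxin bound to the cap (2.36 in KO cells and 1.73 in WT cells), and Adrm1, a ubiquitin receptor of the cap (1.98 in KO cells and 1.74 in WT cells). Over all genes tested, 5.95% were called higher with beads in KO and 4.6% in WT cells, and 2.15% and 6.63% lower. Among the 5937 genes with a group mean of at least 20 TPM, the same fit called 1582 higher in KO and 1220 in WT cells. Of 20 genes for ubiquitin, its activation and its shuttles, 8 rose in KO cells and 4 in WT cells, and none fell. The WT count is near the share among abundant genes, and the medians over the list were 1.13 and 0.69. Those with the smallest p included Rps27a, which encodes ubiquitin fused to a ribosomal protein (2.19 in KO cells and 2.13 in WT cells), and Uba1, the ubiquitin-activating enzyme (2.09 in KO cells and 1.74 in WT cells). Of 7 transcription factors and their processing enzymes linked to proteasome genes, 0 were called by limma, and at an unadjusted p under 0.05 there was 1 in KO and 0 in WT cells. The medians were 0.28 in KO and -0.30 in WT cells. Nfe2l1, the factor known to raise proteasome genes when proteasome activity is low, had differences of 0.28 in KO cells and -0.45 in WT cells. Between KO and WT cells 0 genes of these lists were called by limma, with or without beads, and all 3 immunoproteasome subunits had an unadjusted p under 0.05 without beads. With beads 2 of them did. Psmb8 differed by -1.05 ± 0.42 with beads (adjusted p = 1.00) and -1.28 ± 0.30 without (adjusted p = 0.144). Calls of Psmb8, Psmb10, Txnl1 and Adrm1 in KO cells were lost without KO library 4 with beads, without KO library 5, and without the 4 KO libraries rich in repeats, and those of Txnl1 and Adrm1 in WT cells without any 1 of the WT libraries with beads.

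Since most genes moved in one direction, the promoter windows in RefSeq (GRCm38.p6, 250 bases before to 50 after each gene's start) were searched for 8 short motifs on both strands, and the shares are descriptions, with no test. Windows were found for 39 of the 47 genes, 42 windows in all. CCGGAA, the core of ETS sites, was in 52.4% of these windows, against 14.9% of all 32851 windows, and the interferon-stimulated response element in 11.9% against 3.44%. GGGCGG, the GC box, was in 54.8% against 35.7%, and the median GC content was 58.2% against 52.7%. TGACNNNGC, the core of antioxidant response elements to which Nfe2l1 and Nfe2l2 bind, was in 14.3% against 12.4%, and CCAAT in 33.3% against 37.4%. TATAAA was in 7.14% against 13.6%, CACGTG in 7.14% against 7.15%, and TTCNNNGAA, the gamma-activated site, in 4.76% against 8.30%. The 21 genes with CCGGAA had a median bead difference of 2.05 in KO and 1.90 in WT cells, against 2.20 and 1.93 for the 18 without it. The windows below show a catalytic subunit, a lid subunit, a PA28 subunit and PA200, whose bead difference was not called. Motif matches on either strand stand in capitals: TGACNNNGC in Psmb6 (chr11:70525107-70525406, plus strand), TGACNNNGC and CCGGAA in Psmd12 (chr11:107479278-107479577, plus strand) and Psme4 (chr11:30771525-30771824, plus strand), and the interferon-stimulated response element in Psme1 (chr14:55578244-55578543, plus strand).
Psmb6: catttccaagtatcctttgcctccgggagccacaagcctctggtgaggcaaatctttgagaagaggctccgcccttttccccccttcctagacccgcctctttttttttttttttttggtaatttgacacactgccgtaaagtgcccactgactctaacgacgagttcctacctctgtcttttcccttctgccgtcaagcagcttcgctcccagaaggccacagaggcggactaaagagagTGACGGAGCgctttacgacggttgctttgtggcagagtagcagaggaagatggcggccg
Psmd12: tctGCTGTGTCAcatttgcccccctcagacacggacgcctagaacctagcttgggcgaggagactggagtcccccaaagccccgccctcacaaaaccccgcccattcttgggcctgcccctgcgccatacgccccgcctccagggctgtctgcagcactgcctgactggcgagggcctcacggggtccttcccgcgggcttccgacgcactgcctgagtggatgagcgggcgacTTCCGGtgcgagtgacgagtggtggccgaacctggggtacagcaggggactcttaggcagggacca
Psme1: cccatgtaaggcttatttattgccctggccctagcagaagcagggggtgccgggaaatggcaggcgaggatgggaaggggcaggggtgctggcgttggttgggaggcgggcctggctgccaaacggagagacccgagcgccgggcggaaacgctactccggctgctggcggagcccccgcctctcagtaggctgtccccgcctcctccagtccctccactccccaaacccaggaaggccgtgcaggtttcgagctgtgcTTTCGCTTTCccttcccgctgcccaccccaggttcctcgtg
Psme4: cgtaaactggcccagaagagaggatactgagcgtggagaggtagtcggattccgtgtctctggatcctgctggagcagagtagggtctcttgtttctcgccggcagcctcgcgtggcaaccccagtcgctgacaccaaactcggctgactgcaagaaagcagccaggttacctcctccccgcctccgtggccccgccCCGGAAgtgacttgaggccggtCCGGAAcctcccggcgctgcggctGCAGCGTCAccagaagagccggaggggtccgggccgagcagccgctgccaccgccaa
In Psmb6 the match lies at bases -9 to -1 from the start, in Psmd12 at -247 to -239 and -16 to -11, in Psme1 at 10 to 19, and in Psme4 at -53 to -48, -31 to -26 and -7 to 2. None of these matches overlap each other.

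DOCK8-deficient and WT cells were then compared within each culture. KO cells express the YFP-Cre and WT cells do not. For every gene, the loss of Dock8, the YFP-Cre and the sort on YFP thus cannot be told apart. Foxp3 drives the YFP-Cre, so YFP marks Foxp3 expression in KO cells only. Without beads, 0 of the 47 genes were called by limma, against a background of 0.0734% of genes tested. At an unadjusted p under 0.05 there were 25 of the 47, and 3386 of the 29989 genes tested. The estimates for 44 of the 47 were negative, with a median of -0.72, against -0.11 over all genes and -0.44 over genes with a group mean of at least 20 TPM. Class medians lay between -0.54 for the activators and -0.85 for the β ring. The share of TPM in repeat-rich genes and the T cell marker sums, given above, also differ in this comparison, and all 5 T cell markers also had negative estimates (median -0.92, 0 called). Without the 4 KO libraries rich in repeats, the median over the 47 genes was -0.33, and that over all genes was 0.0014.

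Psmd2, the scaffold of the base, had the smallest p without beads and was the only one of the 47 whose groups did not overlap, against a background of 1.27% of genes lower without overlap. It had 13.9 to 26.00 TPM (median 20.8) in KO libraries, against 45.8, 31.2, 71.6 and 36.4 TPM in WT libraries, a difference of -1.10 ± 0.27 (adjusted p = 0.151). Psme2 had 22.7 to 55.5 TPM (median 39.7) in KO libraries, against 80.3, 54.1, 117 and 99.8 TPM in WT libraries, which overlapped slightly, and a difference of -1.16 ± 0.29 (adjusted p = 0.172). Psmb1, a structural β subunit, had 39.6 to 141 TPM (median 65.6) in KO libraries, against 115, 115, 249.3 and 167 TPM in WT libraries, with a difference of -1.18 ± 0.32 (adjusted p = 0.196). For the catalytic subunits the differences were -1.18 ± 0.32 for Psmb6, -0.79 ± 0.44 for Psmb5 and -0.71 ± 0.32 for Psmb7, with adjusted p of 0.191, 0.529 and 0.419. The value of Psmb5 was 0.011 without the 4 KO libraries rich in repeats. Psme4, Psmc3ip and Psmc2 had positive estimates, of 0.95 ± 0.35, 0.24 ± 0.41 and 0.19 ± 0.19.

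With beads, 0 of the 47 genes were called by limma, against a background of 0.00333%, and 1 of the 47 had an unadjusted p under 0.05, against 868 of all genes tested. The median was -0.30, against 0.13 over all genes and -0.00018 over genes with a group mean of at least 20 TPM, and 38 estimates were negative. The SE and p-values rest on a spread pooled over all 15 libraries, most of them from cultures without beads. The median SD of the 47 genes was 0.17 in KO and 0.13 in WT with beads, against 0.60 and 0.53 without. An absence of calls here thus does not show that KO and WT levels are alike. The titles number the KO libraries with beads 4 and 5 and the WT libraries with beads 1 to 3. What the numbers stand for is not given, and in this comparison it cannot be told apart from genotype. Psme2 had 276 and 286 TPM in KO libraries, against 683, 619 and 667 TPM in WT libraries, so that the highest KO library was below the lowest WT library (difference -1.22 ± 0.42, unadjusted p = 0.0101, adjusted p = 1.00). Psme1 had 303 and 432 TPM in KO libraries, against 607, 585 and 637 TPM in WT libraries, also without overlap (difference -0.75 ± 0.50, adjusted p = 1.00). Psme4 ran the other way, at 30.9 and 23.3 TPM in KO libraries, against 12.5, 16.8 and 19.03 TPM in WT libraries (difference 0.72 ± 0.49, adjusted p = 1.00). Psma7, an α subunit, had 325 and 512 TPM in KO libraries, against 552, 570.4 and 488 TPM in WT libraries, and its groups overlapped (difference -0.39 ± 0.31). The catalytic subunits differed by -0.04 ± 0.62 for Psmb5, -0.34 ± 0.45 for Psmb6 and -0.19 ± 0.45 for Psmb7. With 2 libraries against 3, 24 of the 47 genes were lower without overlap, against a background of 8.02%, and 6 were higher without overlap, against 17.4%: Psma8, Psmb11, Psme3, Psme4, Psmf1 and Psmd9.

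**Figure D4:**
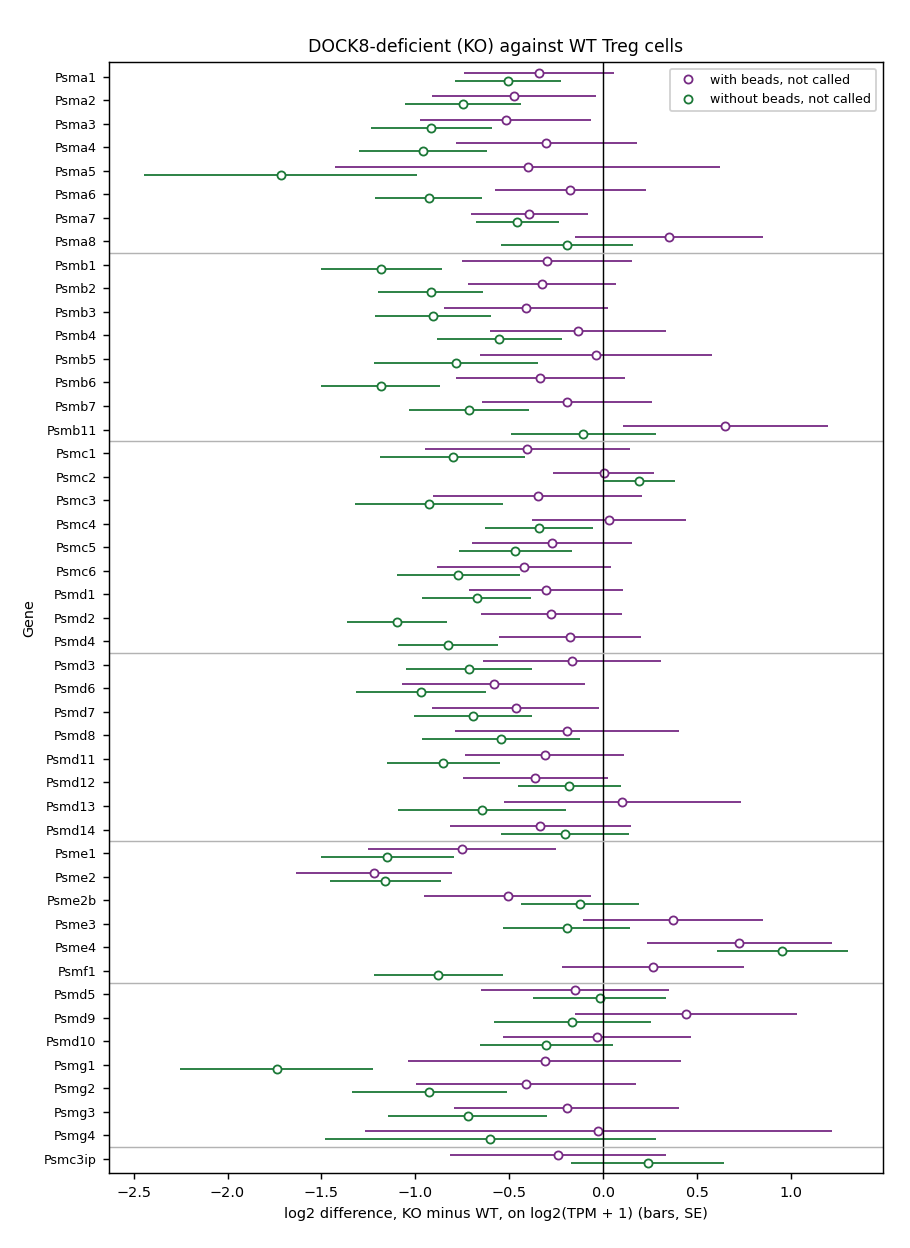
Log2 difference KO minus WT for each of the 47 genes, ± SE from limma, by class, with beads (purple, n = 2 and 3) drawn above without beads (green, n = 6 and 4). All points are open because 0 genes passed an adjusted p under 0.05. Most points without beads lie between -1.74 and 0, and most with beads lie closer to 0.

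Whether the bead response itself differed between KO and WT cells was tested as the difference between the 2 differences. Limma called 0 of the 47 genes, against a background of 0.00333%, and 0 had an unadjusted p under 0.05, so the 8 genes called in 1 kind of cell alone are not shown to respond differently. The median was 0.49, against 0.27 over all genes and 0.47 over genes with a group mean of at least 20 TPM. Among genes named above, Psmg1 had 1.43 ± 0.89, Psmf1 had 1.14 ± 0.59, Psmb1 had 0.88 ± 0.55 and Psmd2 had 0.82 ± 0.46. For the catalytic subunits the values were 0.75 ± 0.76 for Psmb5, 0.85 ± 0.55 for Psmb6 and 0.52 ± 0.55 for Psmb7. With scaling to abundant genes the median over the 47 genes was 0.0096, and that over all genes was -0.05.

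Each constitutive catalytic subunit has an immunoproteasome counterpart, and the share of the immuno form in the TPM of a pair compares both within 1 library: Psmb8 with Psmb5, Psmb9 with Psmb6 and Psmb10 with Psmb7. With beads, Psmb8 made up 53.5% and 52.5% of its pair in KO libraries, against 66.2%, 69.1% and 72.9% in WT libraries. Without beads the share was 62.7% to 84.9% in KO libraries and 77.0%, 84.4%, 78.4% and 68.0% in WT libraries. The means were 53.0% ± 0.67 (SD, n = 2) in KO and 69.4% ± 3.34 (n = 3) in WT libraries with beads, and 70.4% ± 8.13 (n = 6) in KO and 77.0% ± 6.75 (n = 4) in WT libraries without beads. The 2 KO libraries with beads were thus the lowest of all 15, while KO and WT overlapped without beads. Psmb9 made up 9.93% ± 2.08 in KO and 16.5% ± 1.59 in WT libraries with beads, against 32.1% ± 9.24 in KO and 30.1% ± 11.3 in WT libraries without beads. Psmb10 made up 23.2% ± 1.48 in KO and 27.1% ± 4.39 in WT libraries with beads, against 41.1% ± 13.7 in KO and 52.8% ± 15.4 in WT libraries without beads.

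In exact two-sided permutation tests over libraries, none of the 12 share comparisons passed after Benjamini-Hochberg adjustment, where the smallest adjusted p was 0.196. With beads, KO minus WT was -16.4 percentage points for the Psmb8 share and -6.57 for the Psmb9 share, each at p = 0.1, the smallest p an exact test of 2 against 3 allows, and -3.91 for the Psmb10 share (exact p = 0.3). In KO cells, beads minus none was -17.4 points for Psmb8 (exact p = 0.0714), -22.1 for Psmb9 (exact p = 0.0357, the smallest possible) and -17.8 for Psmb10 (exact p = 0.107). In WT cells it was -7.54 for Psmb8 (exact p = 0.171), -13.6 for Psmb9 (exact p = 0.114) and -25.6 for Psmb10 (exact p = 0.0571, where 0.0286 is the smallest possible). Without beads, KO minus WT was -6.53 for Psmb8 (exact p = 0.224), 2.01 for Psmb9 (exact p = 0.748) and -11.7 for Psmb10 (exact p = 0.243). Psmb5 has a pseudogene, Psmb5-ps, whose transcript is 91.9% identical, and the exons of Psmb5 and Psmb7 overlap other genes, so a part of these reads may be shared.

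**Figure D5:**
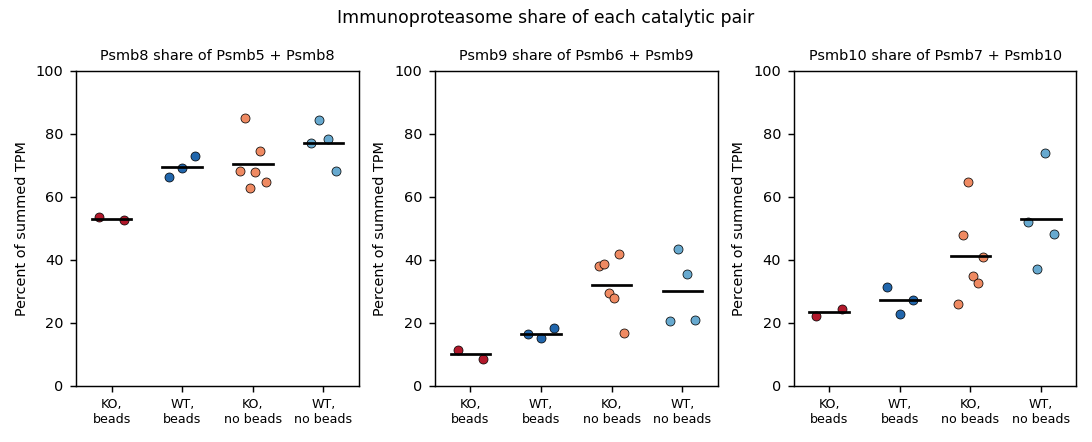
Share of the immunoproteasome subunit in the TPM of each catalytic pair (percent, y axis), by library (points) with the group mean as a line, for KO and WT with beads and KO and WT without beads. The 2 KO libraries with beads have the lowest Psmb8 shares, 53.5% and 52.5%, and the libraries without beads spread widely for Psmb9 and Psmb10.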

How the data were processed

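RNA was measured in 15 Smart-Seq2 libraries, 2 to 6 per group. The deposited tables hold TPM per gene, made by the authors; the submitters' processing notes name STAR, Salmon, DESeq2 and the mm10 build without versions or roles. The sources used here give neither strand use nor depth, so counting error is unknown. Gene IDs were named from GENCODE vM21. The 29989 genes listed in all 15 tables that reached 1 TPM in 2 or more libraries were fitted with limma 3.58.1 in R 4.3.3 on log2(TPM + 1), with trend and 1 mean per group over all libraries (11 residual degrees of freedom). p-values were adjusted (Benjamini-Hochberg) over all genes in each of 5 comparisons, with calls under 0.05. Scripts used Python 3.11.15 with pandas 2.3.3 and matplotlib 3.10.9, and the fit was tested on simulated data. The simulation gave each gene the same spread in all groups, unlike these data, so it does not check the fit under unequal spread. Exact two-sided permutation tests served for the catalytic shares, adjusted over 12.

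Genes named with values in every library were the catalytic subunits, the 10 called genes with the smallest p in each direction and comparison (4 where fewer than 4 were called) and the highest and lowest gene of each class. Others were chosen after their values were seen. The genes and lists were chosen with earlier results of these data known. Exons of 13 of the 47 genes overlap another gene, among them Psmb7 with Nek6, Psme1 with Emc9 and Psmd13 with Sirt3, and without strand such reads cannot be told apart. The alternatives were 12 planned ones and 3 added after seeing the data, which concern scaling together with abundance and the repeat-rich genes.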

Additional observations from a re-analysis of the deposited data

Results flagged for a closer look

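In groups of at least 4 libraries, 6 of 94 gene and group combinations had 1 library far from the others by Dixon's criterion, where chance flags about 1 in 20. All lie in cultures without beads, since the groups with beads are too small for this criterion. Psma5 was listed at 0.0 TPM in KO library 4 without beads. Psmd11 was lowest in KO library 2 at 17.8 TPM, and in the same library Psme4 was lowest at 13.3 TPM. Psme3 was highest in KO library 1 at 12.5 TPM. In WT library 2 without beads, Psmb2 was lowest at 49.5 TPM and Psmd8 was lowest at 28.5 TPM.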

How the results depend on the processing

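The number of the 47 genes called with beads in KO cells (39) was 25 with a replicate block, 25 without the KO libraries rich in repeats, and 10 to 41 when 1 library was left out; in WT cells (32) it was 23 to 35 when 1 library was left out. Whether the labels' replicate numbers pair the libraries is not settled. Same-numbered libraries had correlations of -0.025 to 0.027 in their deviations, and not every library correlated best with its own number. Libraries of unlike number had -0.040 to 0.059, also near none, so the check cannot show or exclude pairing. The deviations of the 2 KO libraries with beads mirror each other, so their values are not separate checks. The block was fitted without the unnumbered libraries, so its effect and their loss are mixed. It gave 25 calls in WT cells and 0 in the KO against WT comparisons. With it the only lower call, Psme2b with beads in KO cells, was not made (-1.23, adjusted p = 0.315). KO and WT libraries with beads share no number, so under the block their comparison also draws on the libraries without beads. Scaling moved the median of all genes by over 0.1. With scaling to 815 abundant genes it was 0.12 for KO against WT without beads, -0.46 for beads in KO cells and -0.05 for the difference between responses. Median-ratio scaling gave -0.14 for beads in WT cells.

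The median over the 47 genes for beads in KO cells (2.24) was 1.77 with scaling to abundant genes, 1.79 with quantile normalization, 1.83 with abundant scaling and only genes of at least 20 TPM, and 1.85 without the KO libraries rich in repeats. For beads in WT cells (1.93) it was 2.54 with median-ratio scaling. For KO against WT without beads (-0.72) it was -0.33 without the KO libraries rich in repeats. For the difference between responses (0.49) it was 0.032 with median-ratio scaling, 0.0096 with scaling to abundant genes, 0.016 without the KO libraries rich in repeats and -0.069 with abundant scaling and only genes of at least 20 TPM. Rescaled without the repeat-rich genes, the medians were 1.90 in KO and 1.68 in WT cells.

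Single values changed sign as follows, none of them called. Psmb5 in KO against WT without beads was 0.011 without the KO libraries rich in repeats. Psmb5 in KO against WT with beads was 0.020 with quantile normalization, 0.029 rescaled without repeat-rich genes, and -0.27 to 0.19 when 1 library was left out. Its difference between responses was -0.050 without the KO libraries rich in repeats. With the block, KO against WT with beads was 0.087 for Psmb6 and 0.015 for Psma7. The Psmb9 share in KO minus WT without beads was -6.96 points without the KO libraries rich in repeats and -1.15 to 6.42 points when 1 library was left out. The cause was not tested. The depth behind the TPM is unknown and limits most the genes of few TPM.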
